A study of Homo sapiens with 6 samples.

Results

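Mucins, carcinoembryonic antigen-related cell adhesion molecules (CEACAMs) and mesothelin are surface and secreted proteins of pancreatic ductal adenocarcinoma (PDAC). The genes followed here are MUC1, MUC4, MUC5AC, MUC5B, MUC13, MUC16, MUC20, CEACAM5, CEACAM6 and MSLN, 10 genes picked by symbol from the 53826 entries measured in each library. Each symbol has 1 entry. Transcripts were sequenced in PK-1 and Panc-1, 2 established lines of human PDAC. Each line gave 3 libraries, a control and 24 h treatments by RARγi-1 and by RARγi-2, so that 6 conditions had 1 library each. RARγi-1 (LY2955303) and RARγi-2 (MM11253) are antagonists of the retinoic acid receptor RARγ. By the study's genotype table CDKN2A is altered in both lines, and SMAD4 in PK-1 but not in Panc-1. The controls are labelled only as control, the RNA-seq doses and vehicle are not stated in the sources used here, and a treatment entry names RARγi-1 for both libraries that are titled RARγi-2. Libraries are called by their titles.

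Transmembrane mucins such as MUC1, MUC4, MUC13 and MUC16 carry long O-glycosylated stretches outside the cell, whereas MUC5AC and MUC5B are secreted and polymerize into the mucus gel. CEACAM5, known as CEA, and CEACAM6 are adhesion molecules held to the membrane by a lipid anchor, and mesothelin is a lipid-anchored glycoprotein that binds MUC16. Many PDAC tumors make MUC1, MUC4, MUC5AC, MUC16, CEA and mesothelin, and several of these proteins serve as serum markers or as targets of antibodies.

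Levels are in TPM, read numbers scaled for transcript length and for the library total, so that genes can be compared within a library. Values under 1 TPM were raised to 1 TPM before deposit, and this lowest value is called the floor. Between 13149 and 13652 entries per library were above it. TPM keep no read number, so the depth behind a value is unknown. A log2 fold change compares (TPM + 1) between 2 libraries, which understates the change of genes with low values. As each condition was sequenced once, replicates cannot be compared and p-values are left out. The only measure of error at hand is the fold change spread, a robust SD of the difference between the 2 treated libraries of a cell line. It was 0.33 to 0.45 (log2) in PK-1 and 0.25 to 0.35 in Panc-1, depending on the level, and it also contains real differences between the inhibitors. Rescaling by median ratios would lower log2 fold changes by 0.11 in PK-1 with RARγi-1 and move the others by less.

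The labelled cell type was checked with 9 ductal epithelial markers. KRT8, KRT18 and KRT19, keratins of simple epithelium, were between 1454 and 6408 TPM in both control libraries. CDH1, the epithelial cadherin, was 170.1 TPM in PK-1 Control and at the floor in Panc-1, where VIM, a filament protein of mesenchymal cells, reached 6291 TPM against 41.7 TPM in PK-1. Of 12 markers of immune, endothelial and fibroblast cells, 9 were at the floor in all 6 libraries. CD68, which is also a lysosomal protein of many cell types, was the highest of the rest. These marker values differ between the cell lines together with the genes below, and their part in the results was not tested.

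CEACAM5 and CEACAM6 are neighbours in the genome and close copies of each other, which bears on how their reads can be told apart. CEACAM5 lies at chr19:41708626-41730519 and CEACAM6 at chr19:41755530-41772211 (GRCh38.p14), 25.0 kb apart on the same strand. In a global alignment, 90.9% of the 1030 aligned bases of their coding sequences were identical. Of the 50-base windows of the CEACAM5 transcript in GENCODE 29, 1.42% also occur in CEACAM6, and no 100-base window does. A further annotated gene, AC243967.1, holds 18.5% of the CEACAM5 windows of 50 bases and 4.22% of those of CEACAM6. The longest stretch that both coding sequences share has 65 bases, at positions 752 to 816 of each. It is shown here in capitals with 12 bases on either side, because reads that fall inside it cannot be assigned to 1 of the genes:
CEACAM5: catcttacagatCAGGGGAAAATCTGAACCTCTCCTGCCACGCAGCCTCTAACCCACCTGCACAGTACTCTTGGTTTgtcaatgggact
CEACAM6: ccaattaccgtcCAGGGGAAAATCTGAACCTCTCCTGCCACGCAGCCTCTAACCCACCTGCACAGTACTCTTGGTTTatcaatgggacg

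The start regions of these genes are shown because CEACAM5 and CEACAM6 differed in their response although they lie side by side. Each window runs from 250 bases before to 50 bases after the start of the gene on the plus strand, from RefSeq (GRCh38.p14), and capitals mark the bases that are identical in an alignment of the 2 windows. CEACAM5 is chr19:41708376-41708675 and CEACAM6 is chr19:41755280-41755579:
CEACAM5: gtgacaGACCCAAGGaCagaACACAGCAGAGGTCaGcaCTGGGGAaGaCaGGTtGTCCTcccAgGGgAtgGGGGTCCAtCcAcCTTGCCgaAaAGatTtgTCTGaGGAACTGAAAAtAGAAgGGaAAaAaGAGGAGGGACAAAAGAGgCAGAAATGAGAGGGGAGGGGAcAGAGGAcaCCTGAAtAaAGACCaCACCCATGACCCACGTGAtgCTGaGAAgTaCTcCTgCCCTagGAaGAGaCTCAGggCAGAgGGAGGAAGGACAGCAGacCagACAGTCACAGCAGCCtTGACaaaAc
CEACAM6: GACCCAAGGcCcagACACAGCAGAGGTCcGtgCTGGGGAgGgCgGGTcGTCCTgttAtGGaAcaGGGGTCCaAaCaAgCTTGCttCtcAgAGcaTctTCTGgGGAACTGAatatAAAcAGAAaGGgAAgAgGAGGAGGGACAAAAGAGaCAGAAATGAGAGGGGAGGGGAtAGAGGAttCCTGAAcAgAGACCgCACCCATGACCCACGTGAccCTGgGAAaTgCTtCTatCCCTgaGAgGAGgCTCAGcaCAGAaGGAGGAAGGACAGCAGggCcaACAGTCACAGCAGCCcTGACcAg

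Of 292 aligned bases in these windows, 78.8% were identical. The half-site AGGTCA, a form of the core letters that retinoic acid receptors recognize, was searched on both strands, and no other form was counted. It occurs in the CEACAM5 window, on the plus strand from position 30, and not in the CEACAM6 window, and 13.8% of all 34796 promoter windows of this length hold it. Promoter windows were at hand for 6 of the 10 genes, and those of MUC4 and of 1 of the 2 MUC16 starts also hold the half-site, while those of MUC1 and MUC13 do not. GGGTCA, which differs from AGGTCA in the first letter, stands on the minus strand of both the CEACAM5 and the CEACAM6 window. A match is only a description of the letters, and its part in the responses was not tested. No such window was used for MUC5AC, MUC5B, MUC20 and MSLN.

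In the control libraries the cell lines made different sets of these genes. PK-1 Control had 6 of the 10 genes above the floor and Panc-1 Control had 2, MUC1 and MSLN. MUC5AC, MUC5B and MUC13 were at the floor in all 6 libraries, so neither of the gel-forming mucins followed here reached more than 1 TPM. MUC5AC (chr11:1157953-1201138) and MUC5B (chr11:1223066-1262172) lie side by side, and MUC13 is at chr3:124905442-124934751 (GRCh38.p14, as for the positions that follow). In Panc-1 a further 5 genes, MUC4, MUC16, MUC20, CEACAM5 and CEACAM6, were at the floor in all 3 libraries. As these are bulk libraries, fewer cells that make a transcript and less of it per cell cannot be told apart.

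**Figure D1:**
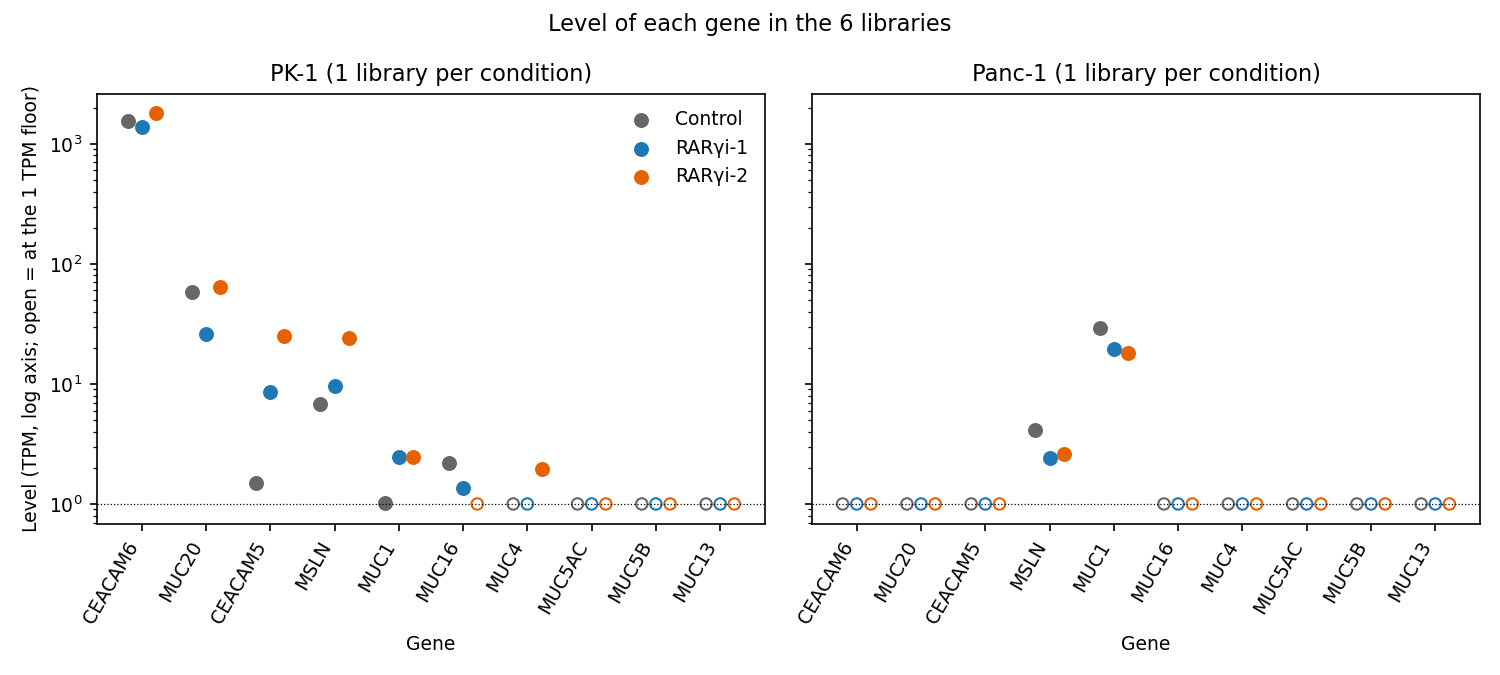
Level of each of the 10 genes in TPM on a log axis, with 1 point per library, grey for control, blue for RARγi-1 and orange for RARγi-2, and open points for values at the floor of 1 TPM. CEACAM6 lies at 1377 TPM or above in all 3 PK-1 libraries, and in Panc-1 only MUC1 and MSLN lie above the floor.

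CEACAM6 was by far the most abundant of these genes in PK-1. It measured 1539.6 TPM in PK-1 Control, 1377 TPM under RARγi-1 and 1804 TPM under RARγi-2, which placed it between ranks 79 and 100 of all entries. It made up 93.9% to 96.6% of the summed TPM of these genes in the PK-1 libraries. In Panc-1 it was at the floor throughout, so that the log2 difference between the control libraries, 9.59, is a lower limit. Of 11441 entries that reached 5 TPM in 1 of the control libraries, 4 including CEACAM6 itself differed as far in this direction.

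MUC20, a transmembrane mucin that binds the receptor MET, came next (chr3:195720978-195733551), with 58.1 TPM in PK-1 Control, 26.0 TPM under RARγi-1 and 64.5 TPM under RARγi-2. It was at the floor in Panc-1. The log2 difference between the control libraries was at least 4.88. The MUC20 level depends on how repeated sequence was counted, because 70.3% of the 50-base windows of its transcript also occur in another gene, mostly in the pseudogene MUC20P1 or in the overlapping noncoding transcript MUC20-OT1. MUC20P1 was listed at the floor in all 6 libraries. MUC4 (chr3:195746771-195811929), 13.2 kb from MUC20, was above the floor only in PK-1 RARγi-2, at 1.97 TPM, a log2 fold change against the control of at least 0.57.

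MUC1 (chr1:155185824-155192915) had the opposite distribution. It measured 29.3 TPM in Panc-1 Control, 19.4 TPM under RARγi-1 and 18.2 TPM under RARγi-2, against 1.02, 2.48 and 2.45 TPM in the same order in PK-1. All Panc-1 libraries lay above all PK-1 libraries. The log2 difference between the control libraries was -3.91 (PK-1 over Panc-1), and 1.18% of entries with at least 5 TPM differed as far in this direction.

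MSLN (chr16:760734-768865) was low in both lines, with 6.85 TPM in PK-1 Control and 4.12 TPM in Panc-1 Control. Their log2 difference of 0.62 was reached or passed by 25.8% of entries with at least 5 TPM. MUC16 (chr19:8848844-9065751), the transmembrane mucin that carries the CA125 epitope, measured 2.18 TPM in PK-1 Control, 1.37 TPM under RARγi-1 and the floor under RARγi-2. CEACAM5 was 1.49 TPM in PK-1 Control. Within PK-1 Control the order was CEACAM6, MUC20, MSLN, MUC16, CEACAM5 and MUC1, where MUC16 and CEACAM5, and also CEACAM5 and MUC1, differed by less than the fold change spread. With RARγi-1 and RARγi-2 the same held for MSLN and CEACAM5, and with RARγi-2 for MUC1 and MUC4.

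Between the control libraries, CEACAM6 and MUC20 were higher in PK-1 by more than 2-fold and MUC1 was lower. Among the 14618 entries above the floor in 1 of the libraries, 14.6% were higher and 15.7% lower in PK-1 by the same measure. At 1.5-fold, MSLN and MUC16 were also higher in PK-1, which made 4 of 6 genes against 25.1% of entries. Without a pseudocount MUC16 passed 2-fold as the third gene higher in PK-1, against 17.5% of entries. With RARγi-1, and likewise with RARγi-2, 4 genes were higher in PK-1 than in Panc-1 by more than 2-fold, namely MUC20, CEACAM5, CEACAM6 and MSLN, and MUC1 was lower. The background was 16.3% higher and 14.9% lower between the RARγi-1 libraries, and 16.2% and 16.1% between the RARγi-2 libraries. CEACAM6, MUC20 and MUC1 kept their direction past 2-fold in all 3 pairs of like libraries, which 8.92% of entries did towards PK-1 and 8.15% towards Panc-1.

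In PK-1 cells, the gene with the largest change among the 10 was CEACAM5. Its level was 1.49 TPM in the control, 8.63 TPM under RARγi-1 and 25.1 TPM under RARγi-2, so that both treated libraries were above the control. The log2 fold changes were 1.95 and 3.39, against a fold change spread of 0.41. With RARγi-2, 0.543% of 11057 entries that reached 5 TPM in 1 of the libraries were as far or farther in this direction, and with RARγi-1 1.82%. CEACAM5 was past 2-fold with both inhibitors in PK-1, a pattern shared by 7.1% of entries, while 4.6% were lower past 2-fold with both. No other of the 10 genes did so on this scale, but MUC1 did without a pseudocount, with log2 fold changes of 1.29 and 1.27.

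CEACAM6 differed from its control by less than the spread. Its log2 fold changes were -0.16 with RARγi-1 and 0.23 with RARγi-2, both within the fold change spread of 0.33. In the PK-1 RARγi-2 library CEACAM5 was still far below CEACAM6, at 25.1 against 1804 TPM. How reads common to both genes were assigned is not given in the sources used here.

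MSLN was 6.85 TPM in PK-1 Control, 9.52 TPM under RARγi-1 and 24.0 TPM under RARγi-2. The treated libraries were both above the control. The log2 fold change with RARγi-2 was 1.67. That with RARγi-1, 0.42, was just past the fold change spread of 0.41 and within it after rescaling, at 0.33. With RARγi-2, CEACAM5 and MSLN reached like levels, and the difference between them was smaller than the fold change spread.

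MUC20 was lower with RARγi-1, with a log2 fold change of -1.13, and within the spread of 0.41 with RARγi-2, at 0.15. MUC1 had log2 fold changes of 0.79 and 0.77, from a control value next to the floor, and MUC16 of -0.43 and -0.67, the latter a limit because the treated library was at the floor. These values of MUC1 and MUC16 were past the spread of 0.39 at this level but under 2-fold. All of these levels were under 3 TPM.

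In PK-1, 1 of the 6 genes above the floor in 1 of the libraries was higher past 2-fold with RARγi-1 (CEACAM5) and 1 lower (MUC20), while the background was 9.25% of 13965 entries higher and 4.96% lower. With RARγi-2, 2 of 7 genes were higher (CEACAM5 and MSLN) and none lower, against 12.1% of 14028 entries higher and 12.6% lower. Over the genes above the floor the median log2 fold change of the RARγi-1 library was 0.13 and that of the RARγi-2 library 0.57, where all entries above the floor had 0.15 and 0.03. The value of 0.57 is that of MUC4, a lower limit. As MUC4 is not among the 6 genes with RARγi-1, the medians are over different genes. Both comparisons use the same control library. At the lower threshold of 1.5-fold, MUC1 was also higher with each inhibitor, where 22.6% (RARγi-1) and 23.4% (RARγi-2) of entries were higher, and MUC16 was lower with RARγi-2, where 23% were lower. Without a pseudocount, MUC1 passed 2-fold with each inhibitor, against 12.7% and 15.3% of entries, and MUC16 with RARγi-2, against 15%. At 3-fold, MUC20 was no longer counted as lower with RARγi-1, where 1.49% of entries were.

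In Panc-1 cells, none of the 10 genes was past 2-fold with either inhibitor, and only 2 could be followed. MUC1 had log2 fold changes of -0.57 with RARγi-1 and -0.65 with RARγi-2, both past the spread of 0.32. For MSLN the levels were 4.12 TPM in the control, 2.40 TPM under RARγi-1 and 2.61 TPM under RARγi-2, that is, log2 fold changes of -0.59 and -0.50. Both genes were lower in both treated libraries than in the control. The background past 2-fold was 7.4% higher and 6.03% lower of 14004 entries with RARγi-1, and 8.5% higher and 11.2% lower of 13921 entries with RARγi-2. At 1.5-fold, MSLN was lower with RARγi-1 and MUC1 with RARγi-2, against 13.8% and 21.6% of entries. A decrease of MUC1 of this size or larger was seen in 15.8% (RARγi-1) and 21.6% (RARγi-2) of entries with at least 5 TPM.

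**Figure D2:**
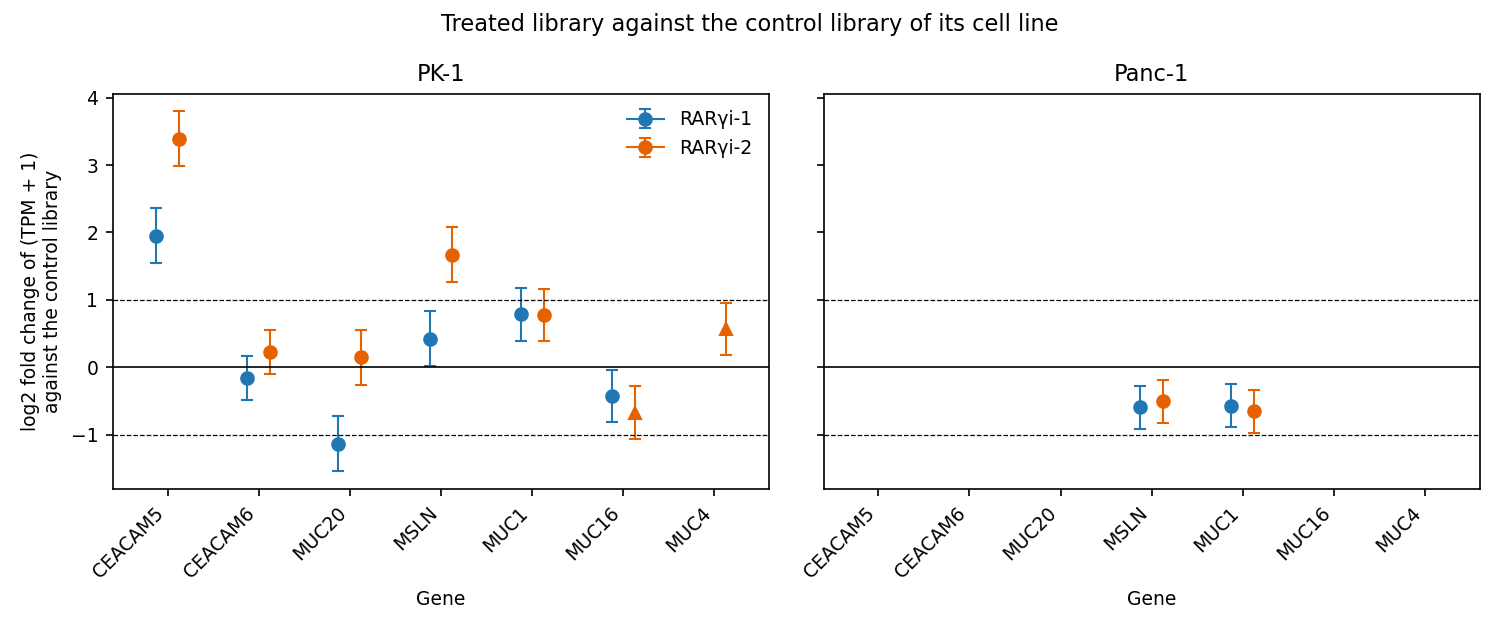
Log2 fold change of (TPM + 1) in each treated library against the control library of its cell line, blue for RARγi-1 and orange for RARγi-2, with bars of 1 fold change spread; triangles mark a value with 1 library at the floor, dashed lines mark 2-fold, and genes without a point were at the floor in both libraries. CEACAM5 lies at 1.95 and 3.39 in PK-1, and MUC1 and MSLN lie above 0 in PK-1 and below 0 in Panc-1.

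Other genes of the same families were mostly at the floor. Of 16 further mucins and mucin-like genes in the files, 12 were at the floor in all libraries of both lines, among them the intestinal mucin MUC2 and the gastric mucin MUC6. CD164, a small sialomucin of many cell types, was the highest of the rest, at 70.7 TPM in PK-1 Control and 159.8 TPM in Panc-1 Control. MCAM, an adhesion molecule also named MUC18, was 55.1 TPM in Panc-1 Control and 1.67 TPM in PK-1 Control. In each line 4 of these 16 genes were above the floor in 1 library or more, and none was past 2-fold with both inhibitors. Of all entries, 7.1% were higher and 4.6% lower in PK-1 by this measure, and 5.33% and 5.59% in Panc-1. Of 10 further CEACAM genes, CEACAM1 and CEACAM19 were above the floor in PK-1. CEACAM1, which unlike CEACAM5 and CEACAM6 has a cytoplasmic tail, measured 15.1 TPM in the control, 32.9 TPM under RARγi-1 and 19.1 TPM under RARγi-2, that is, log2 fold changes of 1.08 and 0.33. CEACAM19 measured 18.4, 36.7 and 29.6 TPM in the same order.

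Mucins are glycosylated in the Golgi by GalNAc transferases (GALNT), which attach the first sugar to serine or threonine, and by enzymes that then extend, sialylate or fucosylate the chain. The list of 30 genes used here also holds FUT8, an enzyme of N-glycans, which is in the counts and medians below. Of the 30 genes, 28 were above the floor in 1 PK-1 library or more and 20 in Panc-1. In PK-1, 1 was lower and 5 higher past 2-fold with RARγi-1 (all entries 4.96% and 9.25%), and 7 lower and 6 higher with RARγi-2 (12.6% and 12.1%). In Panc-1, 5 were lower and 3 higher with RARγi-1 (6.03% and 7.4%), and 10 lower and 3 higher with RARγi-2 (11.2% and 8.5%). The median log2 fold change of the list was -0.08 and -0.14 for PK-1, then -0.47 and -0.98 for Panc-1, against medians over all entries of 0.15, 0.03, 0.09 and -0.03 in the same order.

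The enzymes of the first step are described on their own, a division made after the values had been seen. Of the GALNT genes above the floor, 6 of 11 in PK-1 and 6 of 10 in Panc-1 were lower past 2-fold with RARγi-2 and none higher, where 12.6% and 11.2% of all entries were lower, and the medians were -1.20 and -1.51. With RARγi-1, 1 of 11 and 4 of 10 were lower, where 4.96% and 6.03% of all entries were, and the medians were -0.58 and -0.72. GALNT2, one of the broadly expressed enzymes, measured 120.7 TPM in PK-1 Control and 60.9 and 26.7 TPM after treatment. Its Panc-1 values were 180.7, 63.4 and 50.4 TPM in this order. GALNT18 had 39.5, 20.1 and 5.76 TPM in PK-1, and 18.6, 4.42 and 3.04 TPM in Panc-1. For both genes each treated library was below its control. In Panc-1, GALNT10 and C1GALT1C1, the chaperone of the core 1 enzyme, were also lower past 2-fold with both inhibitors. Of the 20 genes of the whole list above the floor in Panc-1, 5 were lower with both and 2 higher. Of all entries, 5.59% were lower and 5.33% higher by this measure.

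Enzymes that act later on the chain went both ways. With RARγi-2 in Panc-1, 2 of 5 sialyltransferases were lower past 2-fold, ST3GAL2 at -1.29 and ST3GAL4 at -1.13 (log2 fold change), and 2 were higher. Of all entries, 11.2% were lower and 8.5% higher in this comparison. FUT8 adds the core fucose of N-glycans and is in the list although it is not an enzyme of the mucin O-glycan chain. It was lower past 2-fold with RARγi-2 in both lines, by log2 fold changes of -1.29 (PK-1) and -1.28 (Panc-1). ST6GALNAC4, which adds sialic acid to short O-glycans, had 47.7 TPM in PK-1 Control against 136 TPM (RARγi-1) and 147 TPM (RARγi-2), and 39.5 TPM in Panc-1 Control against 285 and 281 TPM. Its log2 fold changes, 1.49 and 1.60 for PK-1, and 2.82 and 2.80 for Panc-1, were all past 2-fold. FUT3, the fucosyltransferase that makes Lewis antigens such as CA19-9, was at the floor in Panc-1 and measured 30.9, 104.6 and 148 TPM in the control, RARγi-1 and RARγi-2 libraries of PK-1. GCNT2, an enzyme that branches the sugar chain, had log2 fold changes of 1.11 and 1.26 in PK-1, and its Panc-1 values were 0.88 and 1.26. In Panc-1, the sialyltransferase ST3GAL1 was 3.43 TPM in the control and 10.5 and 9.44 TPM in the treated libraries. Between the control libraries, B3GNT3 and GALNT3 each measured 68.9 TPM in PK-1 and the floor in Panc-1.

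**Figure D3:**
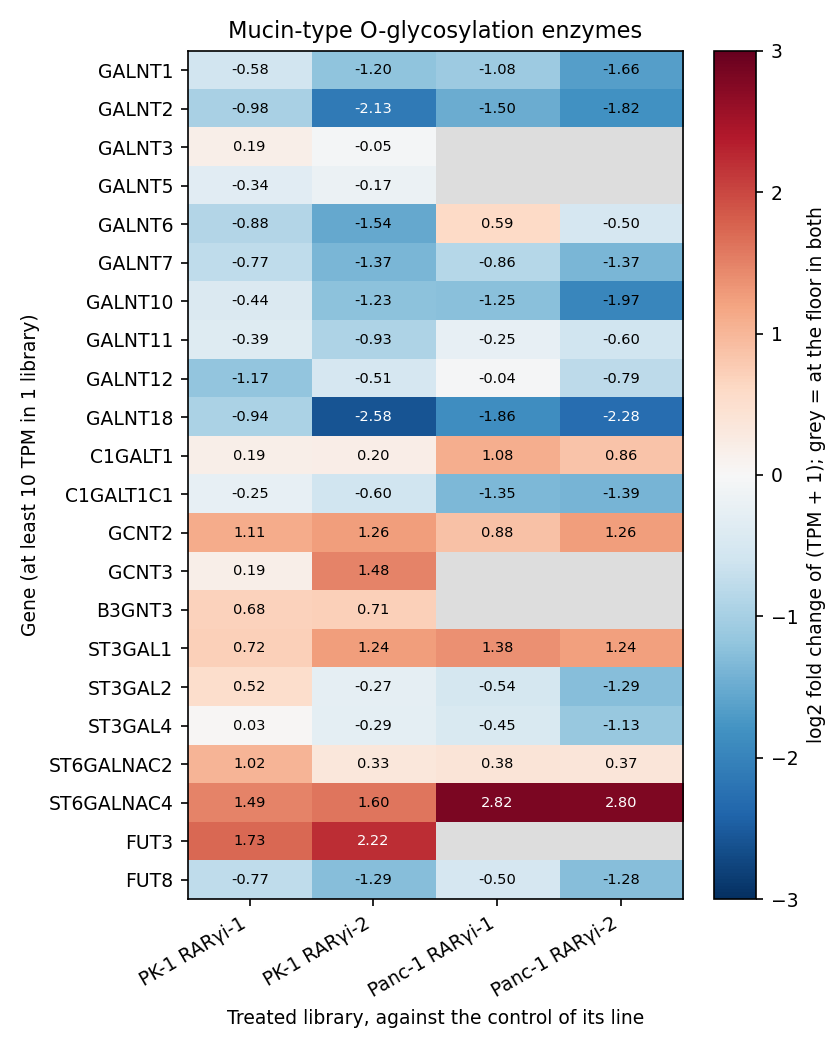
Log2 fold change of (TPM + 1) for the O-glycosylation enzymes with at least 10 TPM in 1 library, with 1 column per treated library against the control of its line, blue for lower, red for higher and grey where both libraries were at the floor. GALNT2 ranges from -0.98 to -2.13 and GALNT18 from -0.94 to -2.58, while ST6GALNAC4 ranges from 1.49 to 2.82.

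Among 18 genes of mucin folding and of the mucus layer, AGR2 stood out. AGR2 is a protein disulfide isomerase of the endoplasmic reticulum that mucin folding requires. It measured 444.6 TPM in PK-1 Control, 3927 TPM under RARγi-1 and 11302 TPM under RARγi-2, that is, log2 fold changes of 3.14 and 4.66. In Panc-1 it measured 207.9 TPM in the control, 36.4 TPM under RARγi-1 and 133 TPM under RARγi-2, that is, log2 fold changes of -2.48 and -0.64. The treated libraries were thus above the control in PK-1 and below it in Panc-1. ZG16B, a secreted lectin-like protein, also went apart between the lines, with 39.1, 83.1 and 115.0 TPM (control, RARγi-1, RARγi-2) in PK-1 but 18.5, 4.57 and 4.07 TPM in Panc-1. The trefoil peptides TFF2 and TFF3 were at the floor in all 6 libraries, and TFF1 was 16.9 TPM in PK-1 Control and had log2 fold changes of -0.76 and -0.31 in that line, both under 2-fold and the latter within the spread of 0.41. In the whole list, 2 of the 8 genes above the floor in PK-1 were higher past 2-fold with both inhibitors (AGR2 and ZG16B) and none lower, where 7.1% and 4.6% of entries were so. In Panc-1, 2 of 9 were lower (ZG16B and SYTL2) and 1 higher (FCGBP), where 5.59% and 5.33% of entries were so.

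Of 22 other surface antigens of pancreatic cancer, 10 were higher in PK-1 Control than in Panc-1 Control past 2-fold and 2 lower, where 14.6% and 15.7% of all entries were so. EPCAM, an epithelial adhesion molecule, measured 578 TPM in PK-1 Control and 13.4 TPM in Panc-1 Control. L1CAM, a neural adhesion molecule, was 1.44 TPM in PK-1 Control and 111.7 TPM in Panc-1 Control. In PK-1, NECTIN4, L1CAM and CD24 were higher and ROR1 lower past 2-fold with both inhibitors (all entries 7.1% and 4.6%). In Panc-1, CD24 and the hyaluronan receptor CD44 were lower and LGALS3, a galectin that binds MUC1, was higher (all entries 5.59% and 5.33%). LGALS3 had 88.2, 249 and 231 TPM in the Panc-1 libraries (control, RARγi-1, RARγi-2) and 202.1, 352 and 375.5 TPM in those of PK-1. CD24, a small sialylated surface protein, had 14.9, 39.0 and 33.0 TPM in PK-1 but 210.7, 57.3 and 47.5 TPM in Panc-1, so that its treated libraries were above the control in one line and below it in the other.

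**Figure D4:**
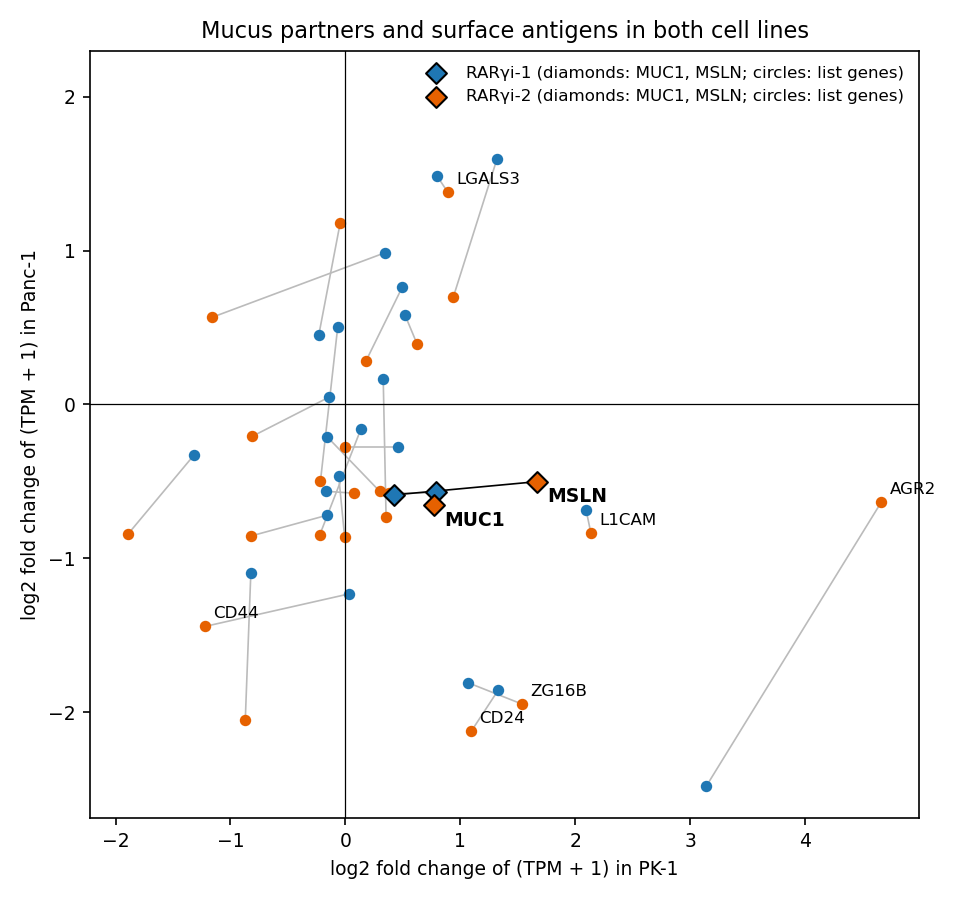
Log2 fold change of (TPM + 1) in PK-1 (horizontal) and Panc-1 (vertical) for mucus partners and surface antigens that could be followed in both lines; a line joins the RARγi-1 (blue) and RARγi-2 (orange) values of a gene, and diamonds mark MUC1 and MSLN. MUC1, MSLN, AGR2, ZG16B, CD24 and L1CAM lie to the right of 0 and below 0, and LGALS3 lies above 0 on both axes.

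Markers of other states and cell types also differed between treated and control libraries. Of the 9 ductal epithelial markers, KRT7 was lower past 2-fold with both inhibitors in PK-1 (all entries 4.6%). KRT8, KRT18 and KRT19 were so in Panc-1 (all entries 5.59%). SOX9 was lower past 2-fold with RARγi-2 in both lines (all entries 12.6% in PK-1 and 11.2% in Panc-1). Its log2 fold changes were -1.06 (PK-1) and -1.79 (Panc-1). In PK-1, KRT17 was higher past 2-fold with RARγi-1, at 1585 against 486.8 TPM (all entries 9.25%). CDH1 was higher past 2-fold with RARγi-2, at 385 against 170.1 TPM (all entries 12.1%). The summed level of the list was 23025 TPM in PK-1 Control and 15116 and 14839.8 TPM with RARγi-1 and RARγi-2. In Panc-1 this sum was 8481, 1829 and 1502 TPM. Of 9 mesenchymal markers, VIM was above its control past 2-fold with both inhibitors in PK-1, at 92.1 and 140.0 against 41.7 TPM (all entries 7.1%). In Panc-1, SPARC and S100A4 were below their control past 2-fold with both (all entries 5.59%). In PK-1 the other mesenchymal markers above the floor, SNAI2, S100A4 and FN1, were lower past 2-fold with RARγi-2, where 12.6% of all entries were. The median of the list with RARγi-2 was -1.18. The mesenchymal sum, to which VIM gave most after treatment, was 104.6, 148 and 164 TPM in PK-1 (control, RARγi-1, RARγi-2) and 6763, 4136 and 4018 TPM in Panc-1. Of 10 acinar and islet markers, 8 were at the floor in all 6 libraries, including INS, CPA1 and PNLIP. PRSS1, a trypsinogen with close copies in the genome, had 1.06 TPM in PK-1 Control, 11.1 TPM under RARγi-1 and 21.2 TPM under RARγi-2. Like CEACAM5, it was higher past 2-fold in both treated libraries (all entries 7.1%), whereas MSLN was so only with RARγi-2. CEL, a lipase, had 11.3, 1.88 and 3.76 TPM in the same order. The acinar and islet sum was 12.4, 13.0 and 25.0 TPM in PK-1 and below 2 TPM in Panc-1. CD68 had 19.8, 95.0 and 62.6 TPM in PK-1 and made up most of the sum of its list, which was 21.7, 96.5 and 63.7 TPM. The part of these differences in the values of the 10 genes was not tested.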

How the data were processed

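The authors deposited log2 values of TPM for 6 libraries of poly(A) RNA made with a stranded kit, with values under 1 TPM raised to 1 TPM. The submitters' processing notes name hg38; the aligner, counter and annotation are not given in the sources used here. With pandas 2.3.3, the deposited logs were undone and libraries compared as log2 of (TPM + 1), and past 2-fold means above 1 or below -1. No test was made, as each line has 1 library per condition; a fit over both lines that assumes the same response in each was not run. Shares of all entries past 2-fold are over entries above the floor in 1 of the libraries compared. For the fold change spread, the median absolute deviation of log2 differences between the treated libraries of a line was multiplied by 1.4826, in 5 classes of level. The genes, lists and measures were chosen with earlier results of these data known. From the other lists, genes were named if past 2-fold the same way with both inhibitors in a line and at least 10 TPM. At most 4 per direction were named, and likewise between the control libraries, and cell type markers also where they were at the floor. MUC20P1, MUC2, MUC6, TFF2, TFF3, ROR1, FUT8, FN1, SOX9, FCGBP, THBS3, SLC50A1 and the neighbouring CEACAM genes are named in addition, after their values were seen. Coordinates are from RefSeq. Alternatives were another or no pseudocount, rescaling, summed entries, a minimum of 5 TPM and thresholds of 1.5-fold and 3-fold. Some genes that the lists hold are not reported here.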

Additional observations from a re-analysis of the deposited data

Results flagged for a closer look

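The following genes were higher than control with both inhibitors in one cell line and lower with both in the other. This difference between the lines was not tested, and both treated libraries of a line share its control, so they do not count as independent. The genes were sought among those followed here and those named from the other lists, without a minimum size of change. Most of the named genes had been picked for the size of their changes. The share of all entries that went apart between the lines in this way was not determined. Whether the list is longer than for other genes therefore cannot be judged. Values are the mean log2 fold change in PK-1 minus that in Panc-1.

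MUC1 differed by 1.39 (PK-1 mean 0.78, Panc-1 mean -0.61), and its PK-1 values rest on 3 TPM or less. MSLN differed by 1.59, with means of 1.05 and -0.55. AGR2 differed by 5.46, the largest difference among these genes, with means of 3.90 and -1.56. ZG16B differed by 3.18, CD24 by 3.20, L1CAM by 2.88 and VIM by 2.08, each with the higher fold change in PK-1. The control levels of CD24, L1CAM and VIM were higher in Panc-1. CEL went the other way, by -1.97, with Panc-1 values under 2 TPM and Panc-1 fold changes (0.19 and 0.28) within the spread of 0.32.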

How the results depend on the processing

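No fit that pairs treated and control libraries over both cell lines was run, as it would assume the same response in each line. Of 106 recomputed fold changes of the 10 genes, 87 moved by less than the spread between libraries and 19 moved further, all with another or no pseudocount. The 87 include 23 values with summed entries and 14 with a minimum of 5 TPM, which could not move. A changed pseudocount cannot reverse a direction, so only the 23 rescaled values could have reversed. None of these did, and all moved by less than the spread. The number of the 10 genes past 2-fold changed as follows. Without a pseudocount, 2 genes were higher with RARγi-1 in PK-1 (CEACAM5 and MUC1), 3 were higher with RARγi-2 (MUC1 in addition) and 1 was lower (MUC16), and 3 were higher in PK-1 Control than in Panc-1 Control (MUC16 in addition). With a 1.5-fold threshold, 2 were higher with RARγi-1 in PK-1, 3 were higher and 1 lower with RARγi-2, 1 was lower with each inhibitor in Panc-1, and 4 were higher in PK-1 Control than in Panc-1 Control. With a 3-fold threshold, 0 were lower with RARγi-1 in PK-1, where MUC20 had been. The log2 fold changes of CEACAM5 were 2.53 and 4.07 without a pseudocount and 1.07 and 2.21 with one of 5 TPM. Summing entries of a symbol changed nothing, as each of the 10 symbols has 1 entry. Without read numbers, values near the floor have no stated precision.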

Other observations

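Of the 4 protein-coding genes in the files within 100 kb of CEACAM5, CEACAM6 was the only one above the floor in PK-1, and CEACAM3, CEACAM4 and CEACAM7 were at the floor in all 6 libraries. Of 16 such neighbours of MSLN, 15 were above the floor in PK-1, 2 were higher past 2-fold with both inhibitors in that line, where 7.1% of all entries were, and none lower, and 1 of 15 was lower with both in Panc-1, where 5.59% were. Of 14 neighbours of MUC1, 12 (PK-1) and 13 (Panc-1) exceeded the floor. THBS3 and SLC50A1 were higher past 2-fold with both inhibitors in PK-1 (all entries 7.1%), and none was in Panc-1 (all entries 5.33%).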
